A study of Homo sapiens with 12 samples.

Results

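The genes described here make cholesterol, take it up and move it, or set the activity of the SREBP factors that switch those genes on. They were chosen by symbol from a list of 28 genes, and 26 of the 28125 named genes in the array table matched. FDFT1 and HSD17B7 matched no annotated row and were not analysed here. The genes were measured in SKM1, an established human cell line from a myeloid leukaemia, on 12 arrays. There were 4 groups of 3 arrays: no drug (NT), APR-246 alone (APR), 5-Azacytidine alone (AZA) and the pair together (APR-AZA). All 12 samples were SKM1, a single line, with no other agent or allele named. Each drug was used at its IC50, a concentration not given in molar units in the labels, and RNA was taken at 18 h. Whether a group's arrays stand for separate cultures is not stated, so p-values describe array-to-array spread only, and that spread may be technical.

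Cholesterol is built from acetyl-CoA through mevalonate, isoprenoid diphosphates, squalene and lanosterol by a series of enzymes. Most of these enzymes are transcribed under SREBP-2, encoded by SREBF2, a factor that is made as an inactive precursor in the endoplasmic reticulum. When sterols are scarce the escort protein SCAP carries the precursor to the Golgi, where proteases release the active part. When sterols are plentiful the INSIG proteins hold SCAP back, and INSIG1 is itself an SREBP target. 5-Azacytidine is a cytidine analogue built into RNA and DNA, and APR-246 is a prodrug whose product binds thiol groups.

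All values are log2 signals as the authors deposited them, so a difference of 1 is a 2-fold difference, and levels of different genes are not compared. A gene was called higher or lower at a limma adjusted p under 0.05, adjusted over all 28125 genes, and changes carry the moderated standard error (SE). All 7 myeloid marker genes lay at or above percentile 74.6 of mean signal over all genes. Markers of other lineages were spread, and some lay above the median of all genes: 1 of 4 for T cells (percentiles 17.5 to 59.8), 2 of 3 for B cells (3.7 to 62.1), 1 of 3 erythroid (4.62 to 66.4), 2 of 4 stromal (14.1 to 68.4), 3 of 4 epithelial (38.4 to 93.2, EPCAM highest) and 2 of 4 liver (17.2 to 63.9). The myeloid markers moved with AZA too. Their mean log2 signal per array was 10.06 to 10.23 in NT, 10.004 to 10.20 in APR, 9.44 to 9.60 in AZA and 9.52 to 9.63 with both drugs. Of these 7, 4 fell with AZA, led by ELANE (-2.92 ± 0.13) and MPO (-1.40 ± 0.11), and SPI1 and PTPRC rose. The mean of the liver list per array was 4.56 to 4.60 in NT and 4.38 to 4.52 in APR. It was 4.78 to 4.95 in AZA and 4.76 to 5.01 with both drugs. Of this list only SERPINA1 was called with AZA, and it rose (0.96 ± 0.13, limma adjusted p = 0.000154). ALB (-0.02 ± 0.12), APOA1 (0.11 ± 0.15) and TTR (0.03 ± 0.09) were not called. The part of these markers in the results below was not tested. Pearson correlations within a group were 0.994 to 0.996, against 0.978 to 0.984 between an array that had AZA and one that did not. An array signal cannot tell less RNA per cell from fewer cells expressing a gene.

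With AZA, most of the cholesterol route fell together. Of the 17 enzymes measured from ACAT2 to DHCR7, 13 fell, 1 rose and 3 were not called, with a median log2 change of -0.89. The 1 that rose was GGPS1, which is counted here but stands on a branch of the route. Over all 26 genes, 16 fell (61.5%) and 3 rose (11.5%), where 11.1% of all genes tested were called lower and 9.79% higher. The median change of the 26 genes was -0.52 on the log2 scale, against -0.00368 over all genes. In 17 of the 26 all 3 AZA arrays lay below all 3 NT arrays, a pattern shown by 17.0% of all genes, and in 5 all lay above, shown by 15.1%. The 3 genes that rose were NPC1, GGPS1 and LPIN1.

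**Figure D1:**
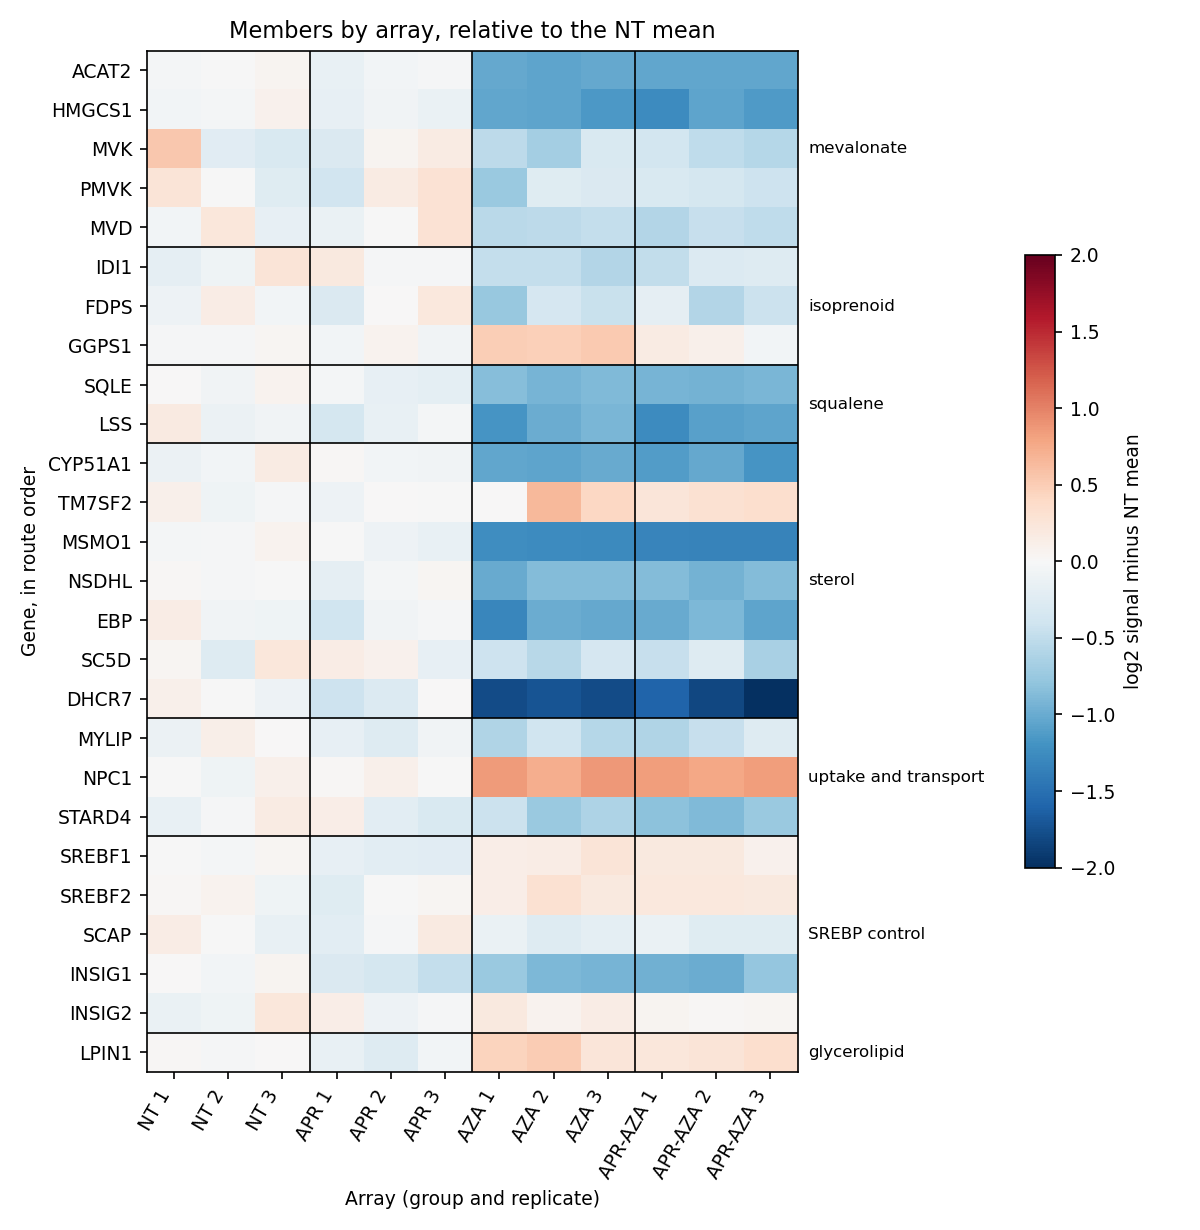
Log2 signal of the 26 genes on each of the 12 arrays, as the difference from that gene's NT mean (blue below, red above), with genes in route order and groups separated by lines. DHCR7 is the darkest blue row, with AZA against NT at -1.77, and NPC1 the strongest red row, at 0.81, while the APR columns are pale.

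DHCR7, the reductase that makes cholesterol from 7-dehydrocholesterol, showed the largest change in the set. Its log2 signal was 9.44, 9.32 and 9.24 on the NT arrays and 7.54, 7.61 and 7.54 on the AZA arrays. The groups did not overlap, and the lowest NT array stood well above the highest AZA array. It fell by 1.77 ± 0.12 on the log2 scale (SE, n = 3 per group, limma adjusted p = 2.29e-07). The arrays with both drugs read 7.73, 7.52 and 7.35 and lay in the same low range.

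Of the other enzymes after lanosterol, 4 fell by 0.91 to 1.26 on the log2 scale. MSMO1, which removes the C4 methyl groups, read 10.07, 10.09 and 10.19 in NT and 8.88, 8.86 and 8.84 in AZA, and fell by 1.26 ± 0.07 (SE). EBP, the sterol isomerase, read 10.10, 9.89 and 9.86 in NT and 8.64, 8.95 and 8.92 in AZA, and fell by 1.11 ± 0.12. For both, every AZA array lay below every NT array. CYP51A1, the lanosterol demethylase, read 9.04, 9.10 and 9.32 in NT and 8.11, 8.09 and 8.14 in AZA, and fell by 1.04 ± 0.08. NSDHL, which acts with MSMO1 on the C4 carbon, read 8.30, 8.26 and 8.27 in NT and 7.26, 7.41 and 7.40 in AZA, and fell by 0.91 ± 0.08. Neither overlapped between the groups, and the limma adjusted p of these 4 genes ran from 4.4e-08 for MSMO1 to 1.44e-05 for EBP.

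SC5D and TM7SF2 behaved differently among the late enzymes. SC5D, the C5 desaturase, read 8.04, 7.75 and 8.24 in NT and 7.59, 7.46 and 7.67 in AZA, a decrease of 0.44 ± 0.14 (SE, limma adjusted p = 0.0379). Its groups lay next to each other without overlap, and its adjusted p over the alternatives ran from 0.0101 to 0.159. The call was lost without any 1 AZA array (0.0818, 0.129 and 0.051), without NT array 1 (0.095) or NT array 3 (0.159), without APR-AZA replicate 1 (0.0515), with quantile normalization repeated (0.0602) and with the compared groups alone (0.0521). TM7SF2, a sterol C14 reductase, was not called, at 0.35 ± 0.13 (adjusted p = 0.0716). Its AZA arrays were spread, at 6.23, 6.87 and 6.63 against 6.33, 6.15 and 6.20 in NT, and without AZA replicate 1 it was called higher (0.53, adjusted p = 0.00205).

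Of the 10 enzymes measured up to lanosterol, with the branch enzyme GGPS1 counted among them, 7 fell, where 11.1% of all genes fell. HMGCS1, which makes HMG-CoA, read 8.41, 8.41 and 8.54 in NT and 7.42, 7.40 and 7.31 in AZA, a decrease of 1.08 ± 0.08 (SE, limma adjusted p = 5.53e-07). ACAT2, the thiolase before it, read 9.45, 9.47 and 9.54 in NT and 8.46, 8.43 and 8.46 in AZA, a decrease of 1.04 ± 0.07 (adjusted p = 1.96e-07). The AZA arrays of both genes lay far below all NT arrays and close to each other. LSS, which closes squalene epoxide into lanosterol, fell by 1.03 ± 0.11, and SQLE, the squalene epoxidase, fell by 0.89 ± 0.07. In SQLE the NT arrays read 10.83, 10.74 and 10.88 and the AZA arrays 9.97, 9.88 and 9.93, again without overlap.

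The enzymes between mevalonate and farnesyl diphosphate moved less. MVD, the decarboxylase, fell by 0.51 ± 0.12 (SE, limma adjusted p = 0.00554), IDI1, the isopentenyl isomerase, by 0.51 ± 0.12 (0.00529), and FDPS, farnesyl diphosphate synthase, by 0.52 ± 0.15 (0.0239). FDPS read 6.66, 6.91 and 6.71 in NT and 5.998, 6.42 and 6.31 in AZA. Its processed pseudogenes may add to its probes, which was not tested. FDPS was no longer called without NT replicate 2 (adjusted p = 0.0986) or AZA replicate 1 (0.111), with a range of 0.0144 to 0.111 over the alternatives. The kinases MVK and PMVK were not called, at -0.50 ± 0.19 (adjusted p = 0.0908) and -0.43 ± 0.18 (0.128). Their standard errors were the largest in the set. NT replicate 1 was high for MVK, at 6.16 against 5.40 and 5.33, and MVK was called lower without NT replicate 3 (adjusted p = 0.0427).

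**Figure D2:**
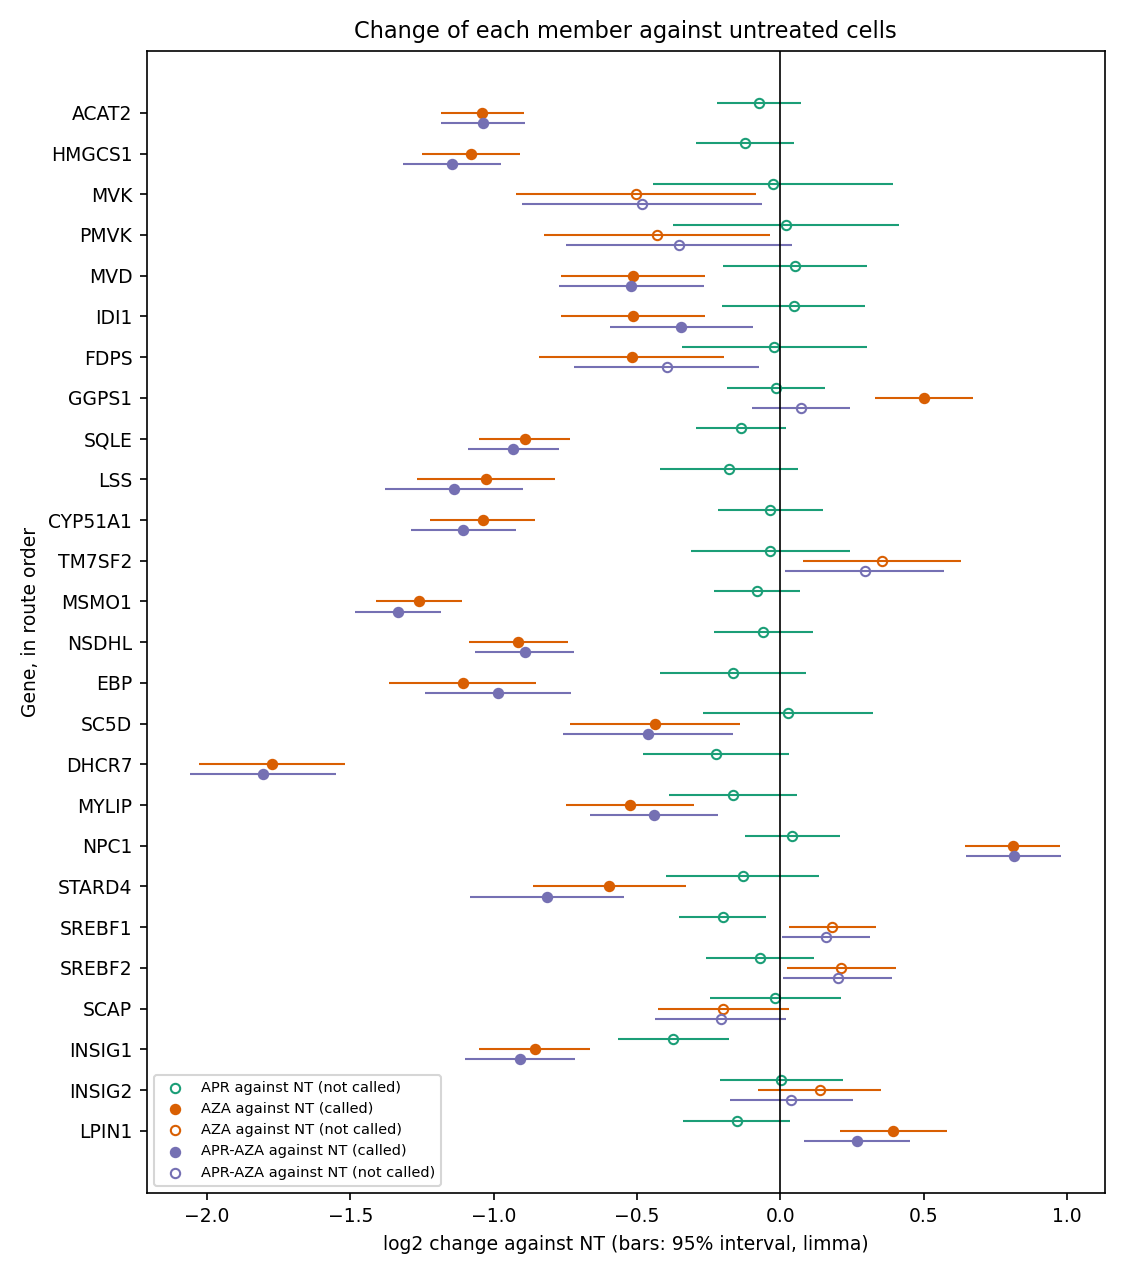
Log2 change of each gene against NT with its 95% interval from limma, for APR (green), AZA (orange) and both drugs (violet); filled points were called. The orange and violet points lie side by side for most genes, from DHCR7 at -1.77 and -1.80 to NPC1 at 0.81 and 0.81, and all green points are open.

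GGPS1, which makes geranylgeranyl diphosphate for protein prenylation and so stands on a branch of the route, rose with AZA. It read 6.96, 6.95 and 7.02 in NT, 6.93, 7.06 and 6.90 in APR, 7.48, 7.46 and 7.499 in AZA and 7.15, 7.09 and 6.92 with both drugs. The 3 AZA arrays stood above all 9 others. The increase with AZA was 0.50 ± 0.08 (SE, limma adjusted p = 0.000388), and with both drugs the change from NT was 0.07 ± 0.08 and not called (adjusted p = 0.613). The difference between both drugs and AZA, -0.43 ± 0.08 (95% interval -0.60 to -0.26), was not called over all genes (adjusted p = 0.986, unadjusted p = 0.000131). Non-additivity, which is how far the pair's change departs from the 2 single-drug changes added up, was -0.41 ± 0.11 for GGPS1 (adjusted p = 1, unadjusted p = 0.00282).

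The genes of uptake and transport moved in both directions with AZA. NPC1, which exports cholesterol from lysosomes, read 8.15, 8.07 and 8.25 in NT and 9.002, 8.88 and 9.02 in AZA. All 3 AZA arrays lay above all NT arrays, and NPC1 was 1.75-fold higher, a log2 change of 0.81 ± 0.08 (SE, limma adjusted p = 5.06e-06). STARD4, a carrier of sterols between membranes, read 8.65, 8.77 and 8.96 in NT and 8.36, 8.06 and 8.17 in AZA, a decrease of 0.60 ± 0.12 (adjusted p = 0.00304). MYLIP, a ubiquitin ligase that sends lipoprotein receptors to degradation and is induced by the sterol-sensing LXR receptors, read 7.51, 7.76 and 7.64 in NT and 7.04, 7.23 and 7.07 in AZA, a decrease of 0.52 ± 0.10 (adjusted p = 0.00211). Neither STARD4 nor MYLIP overlapped between the groups.

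Among the genes that control SREBP, INSIG1 fell with AZA. It read 8.27, 8.22 and 8.33 in NT and 7.54, 7.37 and 7.34 in AZA, a decrease of 0.86 ± 0.09 (SE, limma adjusted p = 1.19e-05), with no overlap. INSIG2, the second retention protein, was not called, at 0.14 ± 0.10 (adjusted p = 0.43), and its arrays overlapped. SREBF2 read 8.92, 8.98 and 8.82 in NT and 9.04, 9.21 and 9.11 in AZA, and SREBF1, which encodes SREBP-1, read 6.94, 6.90 and 6.98 in NT and 7.07, 7.09 and 7.19 in AZA. In both, all AZA arrays lay slightly above all NT arrays, and neither was called, at 0.21 ± 0.09 (adjusted p = 0.119) and 0.18 ± 0.07 (adjusted p = 0.0957). SCAP was not called either, at -0.20 ± 0.11 (adjusted p = 0.248).

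LPIN1, a phosphatidate phosphatase of glycerolipid synthesis and an SREBP target in other cells, rose with AZA. It read 7.38, 7.34 and 7.37 in NT and 7.81, 7.87 and 7.60 in AZA, an increase of 0.39 ± 0.09 (SE, limma adjusted p = 0.00414), with no overlap.

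**Figure D3:**
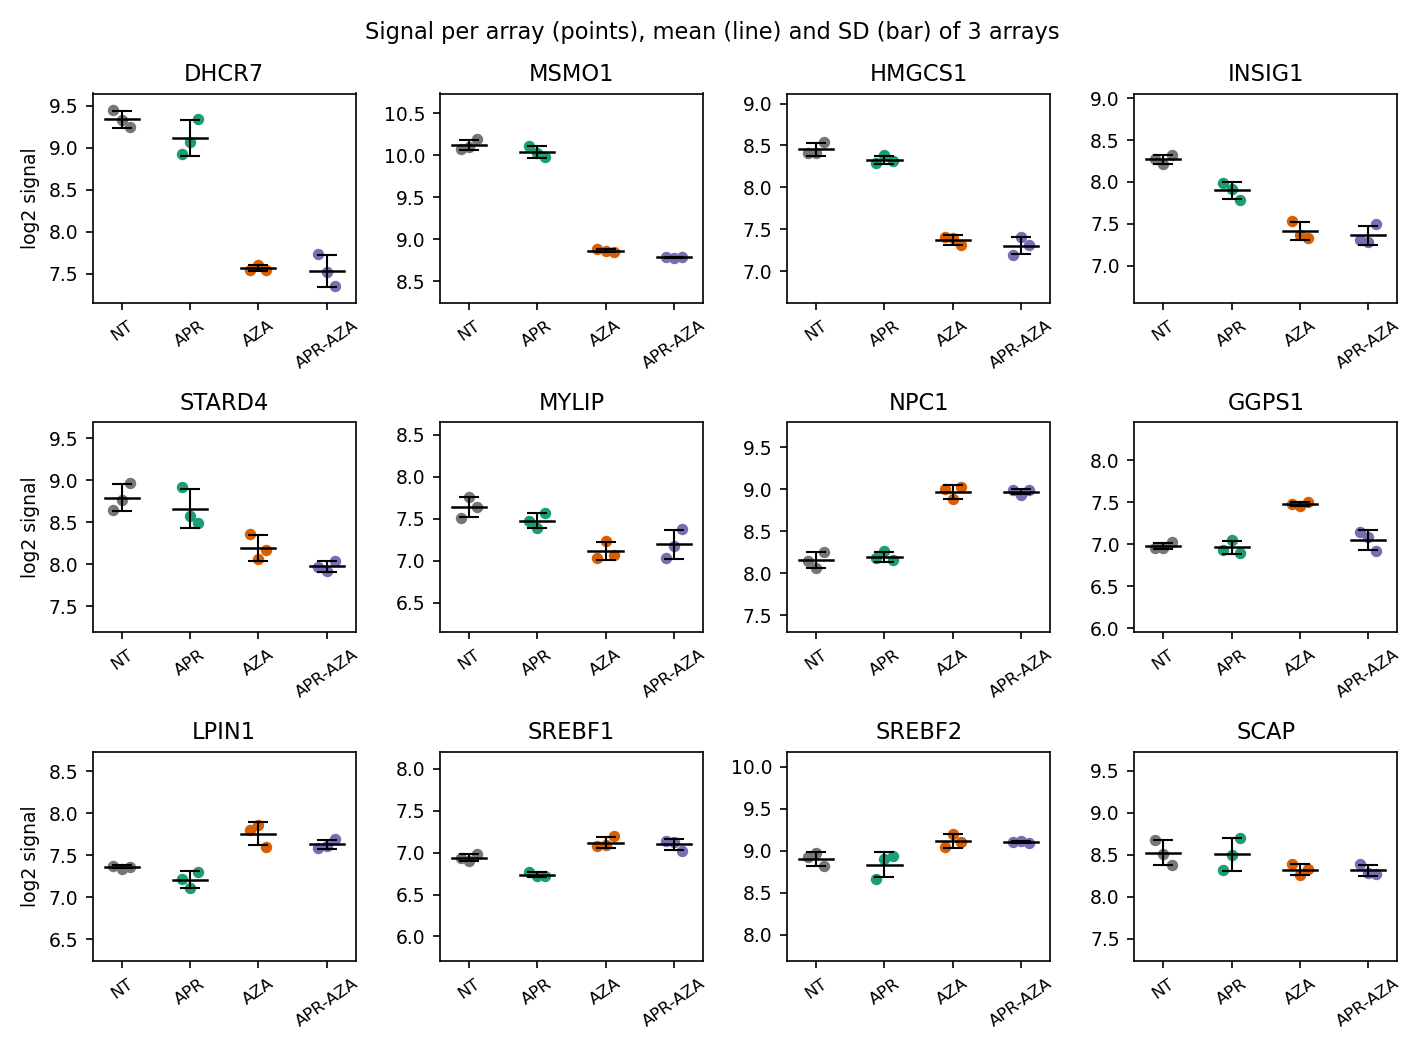
Log2 signal of 12 of the genes on each array, 3 per group (points), with the group mean (horizontal line) and SD (bar); all panels span the same log2 range, each around its own level. The AZA and APR-AZA points lie below NT for DHCR7, MSMO1, HMGCS1, INSIG1, STARD4 and MYLIP and above it for NPC1, and GGPS1 is high in AZA alone.

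The promoters of these genes were read for short motifs known from lipid genes, since many of the genes moved together. The windows run from 250 bases before to 50 after each start in RefSeq, build GRCh38.p14, and 24 of the 26 genes had one, ACAT2 and SQLE being the exceptions. SREBP works beside NF-Y, which binds the CCAAT box, and Sp1, which binds the GC box. The stretches below lie wholly before the start and are written 5′ to 3′ on the gene's strand. Capitals mark CCAAT on either strand and matches to the SREBP consensus TCACNCCAC with at most 1 letter off. Each is the 120 bases placed to hold the most such matches among the 250 before the start, SREBP-like matches counting more. The genes shown are the largest decrease (DHCR7), enzymes with several CCAAT boxes (MSMO1, NSDHL), the SREBP brake INSIG1, the gene with the exact consensus (SREBF2) and a gene that rose (NPC1). They are examples picked partly by their motifs, and falling genes without CCAAT are not shown.
DHCR7: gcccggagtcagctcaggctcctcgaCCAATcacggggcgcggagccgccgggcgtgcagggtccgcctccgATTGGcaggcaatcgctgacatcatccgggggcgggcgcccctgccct
MSMO1: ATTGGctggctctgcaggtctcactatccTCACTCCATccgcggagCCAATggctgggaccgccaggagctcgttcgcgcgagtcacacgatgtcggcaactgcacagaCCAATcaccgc
NSDHL: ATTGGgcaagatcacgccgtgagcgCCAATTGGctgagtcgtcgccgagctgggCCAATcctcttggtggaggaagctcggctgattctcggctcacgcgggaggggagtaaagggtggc
INSIG1: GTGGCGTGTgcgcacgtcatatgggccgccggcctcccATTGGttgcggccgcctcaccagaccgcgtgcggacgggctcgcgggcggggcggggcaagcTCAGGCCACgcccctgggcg
SREBF2: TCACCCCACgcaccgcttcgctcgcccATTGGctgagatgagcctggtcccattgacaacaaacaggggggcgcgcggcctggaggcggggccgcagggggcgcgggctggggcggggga
NPC1: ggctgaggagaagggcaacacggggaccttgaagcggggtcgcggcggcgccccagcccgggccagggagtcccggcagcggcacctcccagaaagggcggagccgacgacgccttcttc

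These stretches lie, in the same order, at chr11:71448394-71448513 (minus strand, from 120 to 1 bases before the start), chr4:165327484-165327603 (plus strand, from 185 to 66 bases before the start), chrX:152830925-152831044 (plus strand, from 138 to 19 bases before the start), chr7:155297670-155297789 (plus strand, from 208 to 89 bases before the start), chr22:41832972-41833091 (plus strand, from 133 to 14 bases before the start) and chr18:23586507-23586626 (minus strand, from 120 to 1 before).

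A CCAAT box was found in 12 of the 14 members that fell with AZA and in 3 of the 10 other members, MVK, TM7SF2 and SREBF2. The share was 36.1% over the windows of all 19561 measured genes that had one, and 38.6% over the 2527 of these that were called lower with AZA. The NSDHL stretch holds 4 CCAAT matches, 2 of them overlapping on opposite strands. The same stretch length in MVK, which was not called with AZA, also holds 4, and the NPC1 window holds none. IDI1 and CYP51A1 were the falling members with no CCAAT in the window. The GC box GGGCGG lay in 13 of the 14 and 9 of the 10, against 51.6% of measured genes and 67.4% of those called lower. The windows of the falling members had a median GC content of 69.0%, those of the other members 67.8% and those of all measured genes 60.7%.

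The exact SREBP consensus was matched in 1 of 24 windows, that of SREBF2, and in 1.13% of measured genes (0.871% of those called lower). With at most 1 letter off, a setting chosen after the exact matches were counted, it was matched in 5 of the 14 falling members and 2 of the 10 others, against 24.2% of measured genes and 24.3% of those called lower. The members so matched were FDPS, IDI1, INSIG1, MSMO1, SC5D, MVK and SREBF2. The E-box CACGTG lay in 3 of 14 and 1 of 10, against 8.12% of measured genes and 12.7% of those called lower. The ATF4 motif TGATGNAA was in 0 of the 24 windows and in 3.18% of measured genes (1.66% of those called lower). Both strands were searched for each motif, and 1 pair of SREBP-like and GC box matches overlapped. A match is a string of letters and was not tested for binding.

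**Figure D4:**
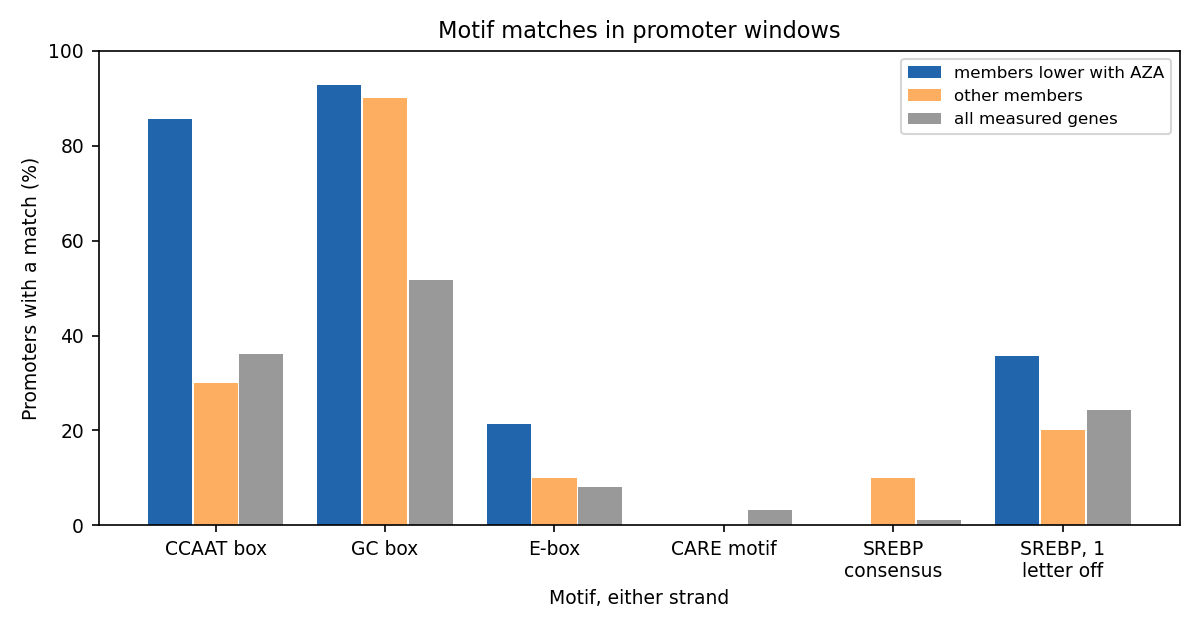
Share of promoter windows (percent) with a match to each motif on either strand, for the 14 members that fell with AZA (blue), the 10 other members (orange) and 19561 measured genes (grey). The CCAAT box is found in 12 of 14 falling members and 3 of 10 others, against 36.1% of measured genes.

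APR alone called none of the 26 genes. The limma count was 0 higher and 0 lower, where 0.00356% of all genes were called higher and 0% lower. At an unadjusted p under 0.05 there were 2 members, INSIG1 and SREBF1, and 3.89% of all genes. The median change of the members was -0.06 on the log2 scale, against -0.00067 over all genes. Taken per array as differences from the NT means, the members' median had an SD of 0.04 between arrays of a group. INSIG1 read 7.99, 7.92 and 7.79 with APR, below its 3 NT arrays and above its 3 AZA arrays. Its change from NT, -0.37 ± 0.09 (SE, 95% interval -0.57 to -0.18), was the largest among the members and was not called (limma unadjusted p = 0.00113). SREBF1 read 6.77, 6.72 and 6.72 with APR, below NT, at -0.20 ± 0.07 (SE, adjusted p = 1, unadjusted p = 0.014). INSIG1, SREBF1, HMGCS1 and LPIN1 were the 4 members with all APR arrays below all NT arrays, a pattern shown by 4.04% of all genes. All lay above in 0 members and in 3.44% of all genes. Over the 17 enzymes the changes with APR ran from -0.22 to 0.05, and the 95% intervals lay between -0.48 and 0.41.

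With both drugs against NT the pattern resembled that with AZA, and these comparisons share the NT arrays. Of the 26 genes 15 fell and 2 rose, where 11.9% of all genes were called lower and 10.4% higher, and the members' median was -0.47. DHCR7 was 3.49-fold lower, MSMO1 2.52-fold, HMGCS1 2.21-fold and LSS 2.20-fold. INSIG1 read 7.31, 7.28 and 7.497, a decrease of 0.91 ± 0.09 (SE, limma adjusted p = 6.28e-06). STARD4 read 7.97, 7.91 and 8.04, below all of its NT arrays, a decrease from NT of 0.81 ± 0.12 (adjusted p = 0.000263). NPC1 read 8.99, 8.94 and 8.99, and rose by 0.81 ± 0.08 (adjusted p = 4.49e-06).

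Some calls with both drugs were lost when 1 array was left out. LPIN1 rose by 0.27 ± 0.09 (SE, limma adjusted p = 0.0386), and lost the call without any 1 of the APR-AZA arrays (0.0616, 0.0838 and 0.131) or the NT arrays (0.0722, 0.101 and 0.083). Under median centring LPIN1 stood at 0.24 (0.111). IDI1 fell by 0.35 ± 0.12 (adjusted p = 0.0482), with a range of 0.0235 to 0.198 over the alternatives. Its call was lost in 10 of the 12 fits that left out 1 array, and without NT replicate 3 the change was -0.22 (0.198). It was lost as well with quantile normalization repeated (0.0632) and with the compared groups alone (0.0962). SC5D fell by 0.46 ± 0.14 (0.0272), and lost the call without APR-AZA replicate 1 (0.0699) or 3 (0.121), NT replicate 1 (0.0715) or 3 (0.123) and with the compared groups alone (0.0562). Its groups overlapped slightly, with APR-AZA replicate 2 at 7.750 and NT replicate 2 at 7.747. FDPS was not called, at -0.40 ± 0.15 (0.0802), and was called without APR-AZA replicate 1 (0.0445) and with the compared groups alone (0.0491). TM7SF2 (0.29, 0.134) was called higher without AZA replicate 1 (0.0273) and with the compared groups alone (0.0387), and MVK (-0.48, 0.101) lower without NT replicate 3 (0.0478).

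Adding APR to AZA called none of these genes, in a comparison where 0% of all genes were called in either direction. GGPS1 alone had an unadjusted p under 0.05, against 4.69% of all genes. For the 17 enzymes the difference ran from -0.43 in GGPS1 to 0.17 in IDI1, with 95% intervals between -0.60 and 0.47. DHCR7 stood at -0.03 ± 0.12 (SE, 95% interval -0.28 to 0.22) and MSMO1 at -0.07 ± 0.07 (-0.22 to 0.08). STARD4 was at -0.22 ± 0.12, with all 3 APR-AZA arrays below the 3 AZA arrays. Non-additivity was called for none of the members, nor for any gene (0% higher and 0% lower), and GGPS1 and INSIG1 had an unadjusted p under 0.05, against 3.52% of all genes. INSIG1 stood at 0.32 ± 0.13 (unadjusted p = 0.0243, adjusted p = 1).

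Adding AZA to APR changed 18 of the 26 genes, 14 lower and 4 higher, where 11.2% of all genes were called lower and 9.45% higher. NPC1 rose by 0.77 ± 0.08, LPIN1 by 0.42 ± 0.09, SREBF1 by 0.36 ± 0.07 and SREBF2 by 0.27 ± 0.09 (log2, SE). SREBF1 read 6.77, 6.72 and 6.72 with APR and 7.13, 7.13 and 7.02 with both drugs, with no overlap (limma adjusted p = 0.00208). SREBF2 read 8.66, 8.90 and 8.94 with APR and 9.11, 9.11 and 9.10 with both, and its adjusted p of 0.0439 ranged from 0.0219 to 0.174 over the alternatives. It lost the call without APR replicate 1 (0.174) or 2 (0.0565), without any 1 APR-AZA array (0.104, 0.108 and 0.0939), without NT replicate 1 (0.0557) or 2 (0.0503), without AZA replicate 3 (0.0572), under median centring (0.0993) and with the compared groups alone (0.0828). The 14 that fell were 12 enzymes, STARD4 and INSIG1, with DHCR7 2.99-fold and MSMO1 2.38-fold lower. SC5D and IDI1 are among these 12, and each lost its call without APR replicate 1 (adjusted p = 0.0856 and 0.113) or APR-AZA replicate 1 (0.0589 and 0.117), SC5D also without APR replicate 2 (0.0715) or APR-AZA replicate 3 (0.0989). MYLIP was not called here, at -0.28 ± 0.10 (0.0801), and was called without APR-AZA replicate 3 (0.0294). FDPS and PMVK were called lower without APR replicate 1 (0.0318 and 0.0272), MVK without NT replicate 1 (0.0209) or with the compared groups alone (0.0319), and TM7SF2 higher without AZA replicate 1 (0.016) or 2 (0.0406) or with those groups alone (0.0179).

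Neighbouring lipid pathways were read from 7 lists with 90 genes, of which 82 were measured. With AZA 11.1% of all genes fell and 9.79% rose, and each list's count stands beside these shares. In fatty acid synthesis and desaturation 6 of 17 genes fell with AZA and 4 rose, against 11.1% and 9.79% of all genes. SCD, the stearoyl-CoA desaturase, read 11.78, 11.65 and 11.82 in NT and 10.69, 10.54 and 10.56 in AZA, a decrease of 1.15 ± 0.08 (SE, limma adjusted p = 5.15e-07). ELOVL6, a fatty acid elongase, fell by 1.11 ± 0.09, and ACACA, acetyl-CoA carboxylase, by 0.85 ± 0.07. ME1, the malic enzyme that makes NADPH and is also a target of NRF2, went the other way, 3.75-fold higher. The list's median was -0.16.

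In the list of lipoprotein receptors and sterol carriers 5 of 18 fell and 5 rose with AZA, against 11.1% and 9.79% of all genes, with a median of 0.05. SCARB1, the HDL receptor, read 9.07, 9.02 and 9.02 in NT and 7.65, 7.62 and 7.56 in AZA and was 2.68-fold lower (limma adjusted p = 9.78e-08). VLDLR, a receptor for triglyceride-rich lipoproteins, read 8.23, 8.13 and 8.29 in NT and 10.05, 10.11 and 10.16 in AZA and was 3.71-fold higher (adjusted p = 1.83e-09). The carriers OSBPL1A and STARD5 fell by 0.92 ± 0.10 and 0.69 ± 0.13 on the log2 scale. The groups of these receptors lay far apart, in opposite directions.

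**Figure D5:**
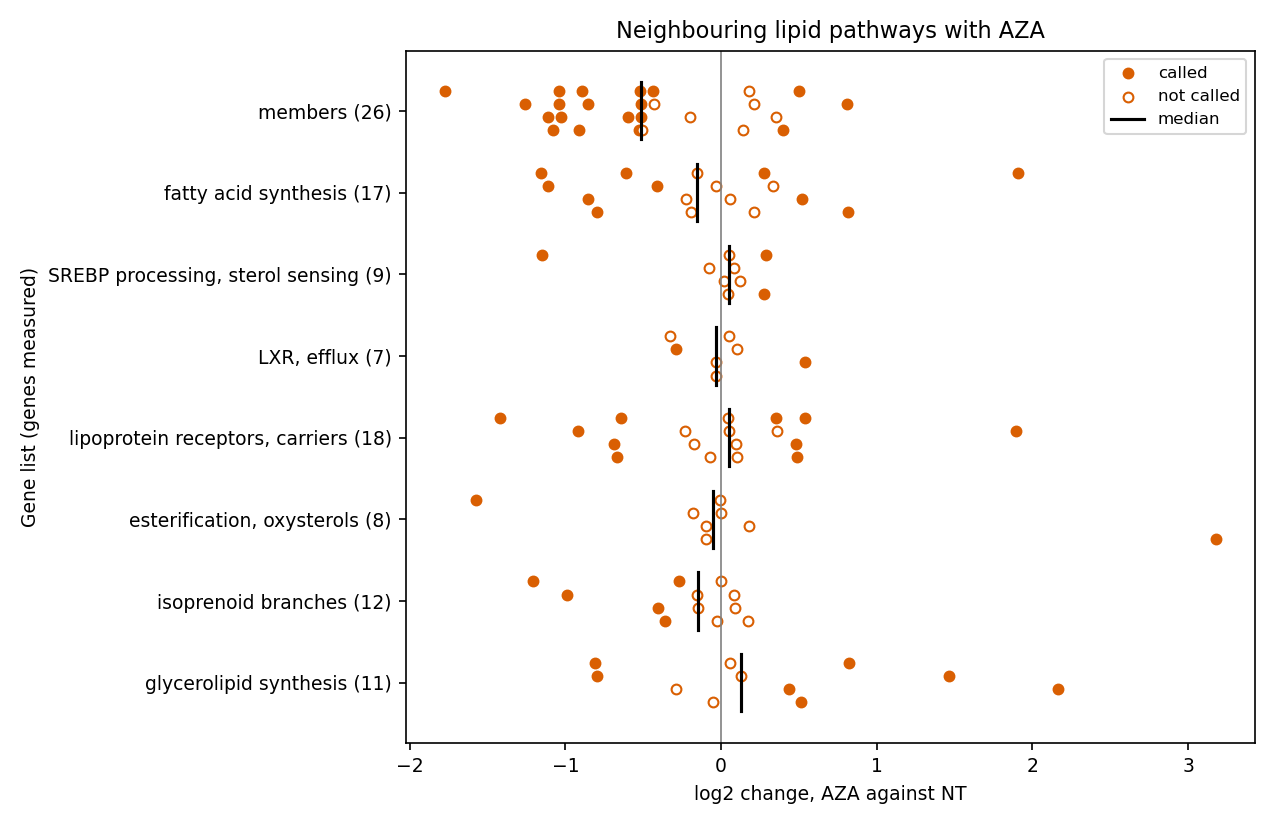
Log2 change with AZA against NT of each measured gene (points, filled where called) in the cholesterol set and in 7 neighbouring lists, with the median of each (black line). The cholesterol set has its median at -0.52, the fatty acid list at -0.16 and the glycerolipid list at 0.13, and CYP27A1 is the point furthest right, at 3.18.

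Of the 8 genes of sterol esterification and oxysterols, 1 rose and 1 fell, near the 9.79% and 11.1% of all genes, so the count shows nothing about the list. CYP27A1, a mitochondrial enzyme that makes an oxysterol, read 6.11, 5.86 and 5.62 in NT and 8.95, 9.10 and 9.07 in AZA, 9.06-fold higher (limma adjusted p = 1.51e-08). It read 9.38, 9.48 and 9.43 with both drugs, above all 3 AZA arrays, a pattern shown by 5.8% of all genes. The difference of 0.39 ± 0.16 (log2, SE) was not called (limma adjusted p = 0.986). CYP7B1, which hydroxylates oxysterols, read 5.85, 6.11 and 6.59 in NT and 4.51, 4.93 and 4.38 in AZA and was 2.98-fold lower (adjusted p = 4.05e-05). The LXR and efflux list had 1 of 7 genes higher, the cholesterol exporter ABCA1 (0.54 ± 0.12, adjusted p = 0.00402), and 1 lower, the phospholipid enzyme LPCAT3 (-0.29 ± 0.08, adjusted p = 0.0252), again near the 9.79% and 11.1% of all genes.

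Among 9 further SREBP processing and sterol-sensing genes 1 fell and 2 rose, where 11.1% of all genes fell and 9.79% rose, so the falling share was that of all genes. ERLIN1, an endoplasmic reticulum protein that binds cholesterol and restrains SREBP, read 10.23, 10.30 and 10.31 in NT and 9.02, 9.17 and 9.21 in AZA, 2.22-fold lower (limma adjusted p = 2.14e-07). MBTPS1, the site-1 protease that cleaves SREBP, rose by 0.29 ± 0.08 and the ubiquitin ligase RNF145 by 0.28 ± 0.07 (log2, SE). In the isoprenoid branches 5 of 12 genes fell and 0 rose, where 11.1% of all genes fell and 9.79% rose. PDSS1, which builds the tail of coenzyme Q, fell by 1.21 ± 0.10, NUS1, a subunit of the dolichol-making transferase, by 0.99 ± 0.21, and the CAAX-processing enzymes ICMT and ZMPSTE24 by 0.40 ± 0.08 and 0.36 ± 0.07.

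In glycerolipid synthesis beside LPIN1, 5 of 11 genes rose and 2 fell with AZA, where 9.79% of all genes rose and 11.1% fell. PLIN2, which coats lipid droplets, read 8.60, 8.54 and 8.53 in NT and 10.77, 10.67 and 10.72 in AZA, 4.48-fold higher (limma adjusted p = 8.24e-10). DGAT2, which makes triglyceride, was 2.76-fold higher and the acyltransferase GPAT3 1.77-fold higher, while PCYT2 of phosphatidylethanolamine synthesis was 1.75-fold lower. When APR was added to AZA, limma called 0 genes of the 7 lists. Beside CYP27A1, the largest differences there were 0.26 ± 0.12 in GPAT4, -0.25 ± 0.14 in PDSS2 and -0.23 ± 0.10 in CD36 (log2, SE, adjusted p = 0.986 for each).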

How the data were processed

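RNA of 12 SKM1 samples was biotin-labelled and read on Affymetrix whole-transcript arrays, per the labels' protocols. The authors deposited log2 values, 1 per gene and array, made with RMA, and Partek is named too, per the submitters' processing notes; the sources used here give no version, chip definition or build. RMA sets arrays to a common distribution, which would remove a shift of most genes in 1 direction, and compresses dim signals. Arrays have no counting depth, and their number limits the precision. Array medians ran from 4.69 to 4.78.

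The platform annotation names 1 gene for 28129 of 29413 rows and no gene for 1284, and 0 rows carry several symbols. The brightest row was kept for each of 4 repeated symbols, which left 28125 genes, and no signal filter was applied. No array was a copy of another: the highest share of equal values in a pair was 0.0952%.

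limma 3.58.1 in R 4.3.3 (lmFit, eBayes) was fitted to all 12 arrays with a mean per group and 8 residual degrees of freedom, with Benjamini-Hochberg adjustment over all genes. The fit was tested on simulated data. The members, lists and tests were chosen with earlier results of these data known, so no list was tested. All members may be named. From each neighbouring list the rule names, for AZA against NT and for APR-AZA against AZA, the 4 called genes with the largest changes, or the largest 2 where fewer were called; the text gives some of these. Alternatives were quantile normalization repeated, median centring, removal of the dimmest 30% of genes, the compared groups alone, a replicate block and each array left out, beside other limma settings. Promoter windows are from RefSeq, build GRCh38.p14.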

Additional observations from a re-analysis of the deposited data

How the results depend on the processing

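No called change of a member turned its direction under any alternative. Across 2938 values of the members under the alternatives, 2869 kept their side of the threshold, 54 lost a call and 15 gained one, and 95 of 1912 uncalled values crossed 0. Members called lower with AZA were 16, and 14 to 16 when 1 array was left out in turn, 15 and 13 to 15 with both drugs, and 14 and 12 to 15 for AZA added to APR. Members called higher were 3 (3 to 4), 2 (1 to 3) and 4 (3 to 5). With median centring 1 member was higher with both drugs against NT, and with the replicate block also 1. The genes called over all genes with APR alone were 1, and 2 without the dimmest 30% of genes, 0 with the compared groups alone, 0 with the replicate block and 0 to 2 with 1 array left out. Medians over the members with 1 array left out ran from -0.58 to -0.50 with AZA, -0.54 to -0.47 with both drugs, -0.11 to -0.044 with APR, -0.53 to -0.43 for AZA added to APR, -0.042 to -0.0075 for APR added to AZA and 0.01 to 0.09 for non-additivity. Same-numbered arrays of different groups did not vary together (correlation of deviations -0.25 to 0.14, over 0.1 in 3 of 18 pairs). The numbers are therefore not taken as pairs. Differently numbered arrays ran from -0.19 to 0.28, over 0.1 in 9 of 36 pairs. Some arrays of different groups may thus share variation that does not follow the numbers, which neither the main fit nor the replicate block models. With the replicate block, SC5D with AZA (adjusted p = 0.0641), IDI1 (0.0747) and LPIN1 (0.0734) with both drugs and SREBF2 for AZA added to APR (0.0561) were not called. The cause of these losses was not tested. The number of arrays limits the precision, and the errors were widest for MVK and PMVK.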
